A study of Mus musculus with 20 samples.

Results

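Solute carrier (SLC) genes were followed through 4 comparisons of mouse small-intestinal T cells measured by bulk RNA-seq. The 216 genes described here carry a symbol of the form Slc, a family number, the letter a and a member number, and are listed in all 4 expression tables. They were found among 12289 genes that the 4 tables share. Another 82 genes of this kind were listed in some tables and not in every one, and are not described. Of the 216 genes, 212 name a transporter. The other 4 (Slc9a3r1, Slc9a3r2, Slc7a6os and Slc4a1ap) match the symbol pattern but encode regulators or neighbours of transporters, and are kept apart below.

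The cells were TCRαβ+CD8αα+ intraepithelial lymphocytes (IELs), T cells that lie between the epithelial cells of the gut, from mice at steady state. In mice of the genotype Bcl6-RFP/RFP, cells that were RFP+CD160+ gave 3 libraries (RFP+) and cells that were RFP-CD160- gave 3 libraries (RFP-). The total CD8αα+ population was taken from 3 conditional knockouts, with 2 libraries each: Bcl6fl/fl Cd8cre (Bcl6 KO), Prdm1fl/fl Cd8cre (Prdm1 KO) and Tcf7fl/fl Cd8cre (Tcf7 KO, named for TCF1 in the titles). Each was set against 2 libraries of littermates that carried the floxed alleles without Cd8cre (Bcl6 WT, Prdm1 WT and Tcf7 WT), so an effect of Cd8cre itself cannot be told apart from loss of the gene. All 3 deleted genes encode transcription factors; the product of Prdm1 is BLIMP1 and that of Tcf7 is TCF1. A last pair of Bcl6-RFP/RFP libraries is titled LI while its tissue label reads small intestine; it was put in no group, and its values stand beside the others without a test. The labels give no ages and do not say which animals were pooled or whether libraries of a group came from separate animals, so p-values measure the spread between these libraries only.

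SLC proteins carry nutrients, ions, vitamins and metabolites across the plasma membrane and the membranes of lysosomes, mitochondria, endoplasmic reticulum and Golgi. In T cells the best-known members bring in glucose, glutamine and large neutral amino acids when the cell is activated, and export lactate. Neighbouring enterocytes of the small intestine express another set, which absorbs sugars, peptides, bile acids and salts from food.

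Sequencing depth, counted in 1e6 reads, lay between 14.5 and 16.9 for RFP+ cells and between 16.5 and 17.4 for RFP- cells. It lay between 22.1 and 48.2 over the knockout experiments, and was 30.0 and 22.5 for the LI libraries. Values are FPKM (reads scaled to gene length and library depth) in the RFP and Bcl6 experiments. In the Prdm1 and Tcf7 experiments they are reads divided by a size factor per library, called signal below, which carries no gene length. Levels of different genes are therefore compared only in FPKM, and no level is compared across experiments. Prdm1 had a signal of 639.9 and 361.7 in Prdm1 KO, against 6092 and 5117 in Prdm1 WT. Tcf7 had 7757 and 7993 in Tcf7 KO, against 15430 and 15606 in Tcf7 WT. Bcl6 had 0.55 and 0.638 FPKM in Bcl6 KO, against 0.772 and 0.735 FPKM in Bcl6 WT; the labels do not say which exons were removed. Cd8a and Cd3e were high in every library while Cd8b1 stayed below 2.2 FPKM in the FPKM tables. None of 4 γδ T-cell markers was listed. In the RFP experiment the αβ receptor genes Trac, Trbc1 and Trbc2 were not listed either (8 of 11 T-cell markers were). The missing receptor genes therefore say nothing about whether γδ T cells were present.

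Solute carriers parted RFP+ from RFP- cells in both directions. Of 152 members that passed the filter on low values, 30 were higher and 40 were lower in RFP+ cells, which is 46.1% of those tested, beside 38% of all 9717 genes tested (limma, Benjamini-Hochberg adjusted p below 0.05). By direction, the shares over all genes were 16.4% higher and 21.6% lower. The median log2 fold change of the members was -0.01, beside -0.03 over all genes. Deletion of Prdm1 moved 21 of 178 members, 12 higher and 9 lower (11.8%, beside 6.84% of all genes, 4.29% higher and 2.54% lower). Deletion of Tcf7 moved 4 of 190, 1 higher and 3 lower (2.11%, beside 2.72%, 1.49% higher and 1.23% lower). Deletion of Bcl6 moved 1 of 143, which was lower (0.699%, beside 0.418%, 0.387% lower and 0.0313% higher); none was higher by limma, and 12 of the 143 had an unadjusted p below 0.05 in either direction. A member was tested where it reached 1 FPKM, or a signal of 50, in at least the number of libraries of the smaller group; 137 of the 216 did so in all 4 comparisons and 25 in none. Members that passed only through the group in which they are high had to differ, so these counts describe the members tested and not all 216. Among the called members these were Slc2a6, Slc27a6, Slc25a27, Slc29a2 and Slc38a8 in the RFP experiment (5 of 70) and Slc26a3, Slc27a2, Slc4a4 and Slc16a5 in Prdm1 KO (4 of 21). Groups did not overlap in 86 of the members tested in RFP+ against RFP- cells (56.6%, beside 51.9% of all genes), in 51 in Bcl6 KO (35.7%, beside 33%), in 102 in Prdm1 KO (57.3%, beside 52.4%) and in 85 in Tcf7 KO (44.7%, beside 41.6%). Single libraries moved some counts: without Prdm1 WT replicate 2, 17 members were lower in Prdm1 KO, and without Tcf7 WT replicate 1, 5 were higher and 5 lower in Tcf7 KO. With the filter raised to a signal of 250, 6 were higher in Prdm1 KO, beside 210 over all genes.

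The split between higher and lower members in RFP+ cells changed when the libraries were rescaled to equal sums. The deposited FPKM summed to between 238848 and 241207 in RFP+ libraries, against 262041 to 276608 in RFP- libraries. The granzyme genes Gzma and Gzmb together held 189 to 433 FPKM in RFP+ libraries, against 19402 to 22881 FPKM in RFP- libraries. An alternative added after seeing the data rescaled every library to the same sum. It gave 51 members higher and 25 lower of 152, beside 3300 and 1171 of all 9717 genes. Of the 70 calls, 55 were kept. That rescaling moved the median log2 fold change of all genes by 0.145. Changes below about that size are therefore statements relative to this scale. Median-ratio rescaling kept 69 of the 70 calls with a shift of 0.025, and quantile normalization kept 67 with a shift of 0.031.

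**Figure D1:**
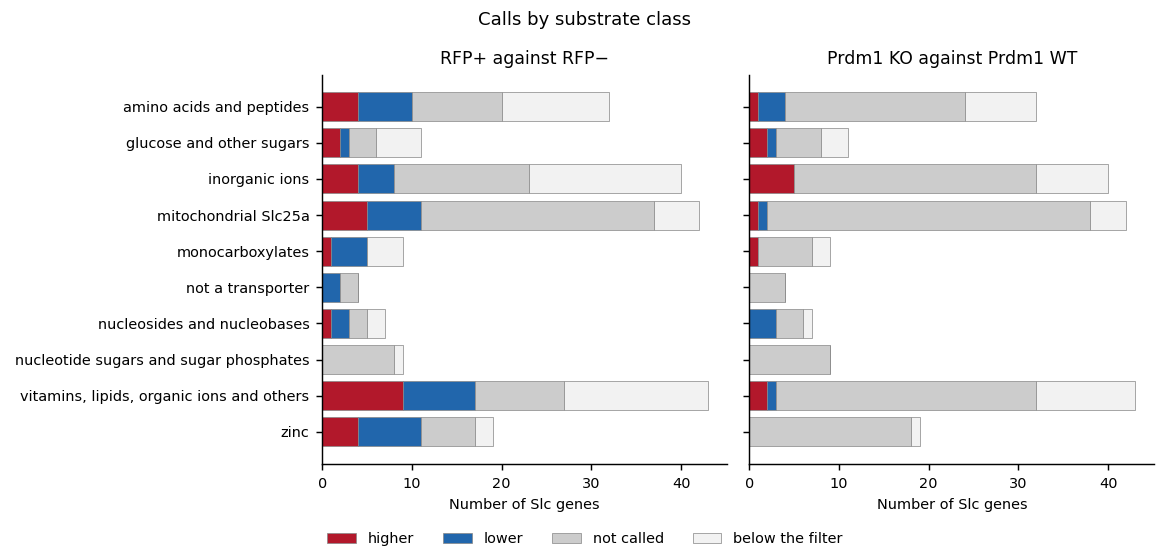
Number of Slc genes (x axis) that were higher, lower, not called (adjusted p of 0.05 or more) or below the filter, by substrate class (y axis), in RFP+ against RFP- cells (left) and in Prdm1 KO against Prdm1 WT (right). Calls in both directions appear in most classes on the left, with none among 8 tested nucleotide sugar carriers. The zinc class holds 11 calls of 17 tested on the left and none of 18 on the right. Over all genes, 38% were called on the left and 6.84% on the right.

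Among sugar carriers, 2 were higher and 1 lower of 6 tested in RFP+ cells (50%, beside 38% of all genes). Slc2a6 was the 1 member of any class called in all 4 comparisons. Slc2a6 (chr2:27021363-27027998, minus strand, GRCm38) encodes GLUT6, a hexose carrier known from lysosomal membranes. It had 5.01, 4.86 and 5.4 FPKM in RFP+ libraries, against 0.603, 0.486 and 0.395 FPKM in RFP- libraries. The groups lie far apart, with a log2 fold change of 2.03 (SE 0.0889, limma adjusted p 2.4e-06, and 1.6e-05 without a filter). Slc2a6 passed the filter only through the RFP+ libraries, so this fold change is a description. It had a signal of 907.9 and 954.2 in Prdm1 KO, against 104.5 and 244.2 in Prdm1 WT (log2 fold change 2.53, SE 0.364, limma adjusted p 0.012). The direction was the opposite in the other 2 knockouts. Slc2a6 had 1.51 and 1.24 FPKM in Bcl6 KO, against 4.37 and 6.45 FPKM in Bcl6 WT (log2 fold change -1.42, SE 0.217, limma adjusted p 0.034). It had a signal of 146.3 and 133.5 in Tcf7 KO, against 333.1 and 259.5 in Tcf7 WT (log2 fold change -1.07, SE 0.205, limma adjusted p 0.011). Within each comparison no library of 1 group reached the other group's range. The call after Bcl6 deletion rested on the settings: the limma adjusted p was 0.097 without a filter, 0.099 after quantile normalization, 0.054 after rescaling to equal sums and 0.094 without Bcl6 WT replicate 2, with the same direction in each. The 2 LI libraries had 3.1 and 2.96 FPKM, between RFP- and RFP+ cells.

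**Figure D2:**
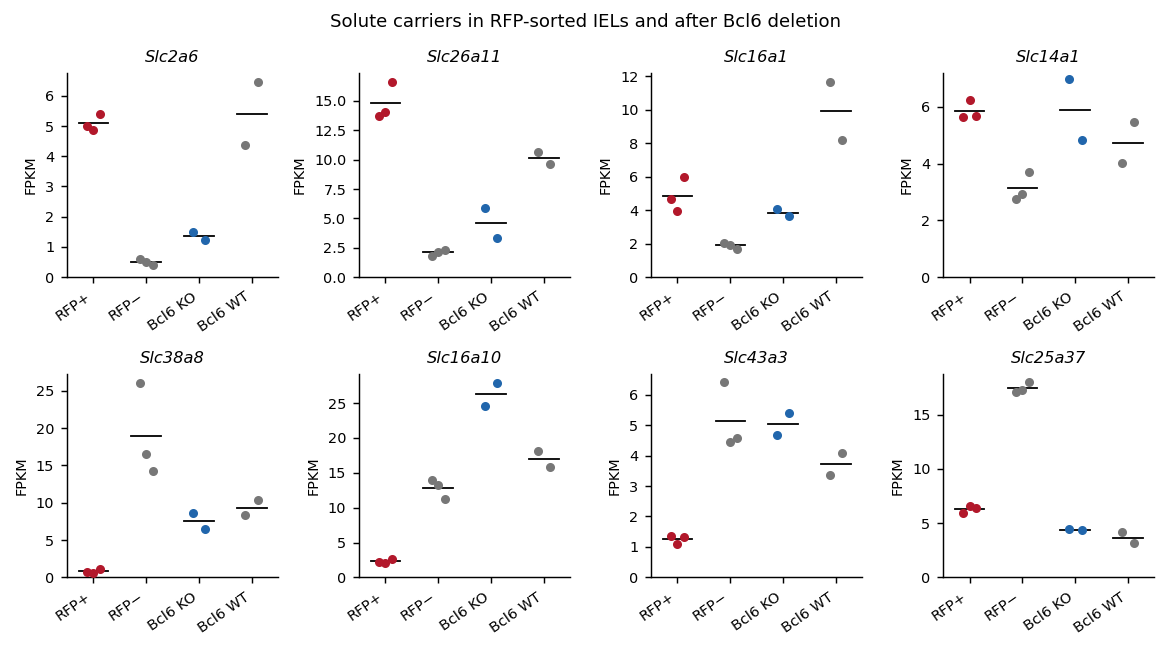
FPKM (y axis, linear from 0) of 8 solute carriers in RFP+ and RFP- libraries and in Bcl6 KO and Bcl6 WT libraries (x axis); each point is a library and each line the mean of its group. Slc2a6 lies between 4.86 and 5.4 FPKM in RFP+ and below 0.61 in RFP-, while Slc38a8 lies at or below 1.12 in RFP+ and at 14.2 or more in RFP-.

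The other hexose carriers of the Slc2 family moved less. Slc2a1, which encodes GLUT1, the main glucose importer of activated T cells, had 11, 9.2 and 10.8 FPKM in RFP+ libraries, against 7.29, 7.29 and 7.01 FPKM in RFP- libraries (log2 fold change 0.46, limma adjusted p 0.0018). Slc2a3, which encodes the high-affinity carrier GLUT3, went the other way, with 8.77, 9.1 and 8.92 FPKM in RFP+ libraries, against 11.6, 12.4 and 12.5 FPKM in RFP- libraries (log2 fold change -0.41, limma adjusted p 0.00075). Slc2a3 was also lower in Prdm1 KO, with a signal of 2216 and 2091, against 3078 and 2832 in Prdm1 WT (log2 fold change -0.46, limma adjusted p 0.044); 7 of its alternatives, with log2 fold changes of -0.50 to -0.38, lost this call. In Bcl6 KO, Slc2a1 had 17.5 and 13.3 FPKM, against 24.8 and 24.3 FPKM in Bcl6 WT, which did not pass the test (log2 fold change -0.65, limma adjusted p 0.39). Slc50a1, a sugar uniporter and the highest of the class, averaged 48.5 ± 2.49 FPKM in RFP+ libraries and 45.8 ± 1.9 in RFP- libraries (SD, n = 3 each), with overlapping ranges. Slc5a1, the sodium-glucose cotransporter of the enterocyte brush border, had a signal of 369.7 and 476 in Prdm1 KO, against 112.8 and 98.4 in Prdm1 WT (log2 fold change 1.98, limma adjusted p 0.0054). In the RFP experiment Slc5a1 stayed below 1 FPKM in every library and was not tested.

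Amino acid and peptide carriers held the members with the lowest fold changes in RFP+ against RFP- cells. Of 20 tested, 4 were higher and 6 lower in RFP+ cells (50%, beside 38% of all genes). In Prdm1 KO 1 was higher and 3 lower of 24 (16.7%, beside 6.84% of all genes). Slc38a8 (chr8:119479602-119501698, minus strand), a sodium-coupled glutamine carrier known from the retina, had 0.725, 0.629 and 1.12 FPKM in RFP+ libraries, against 26, 16.5 and 14.2 FPKM in RFP- libraries. This was the largest fold change of any member in the RFP experiment (log2 fold change -3.41, SE 0.202, limma adjusted p 9.7e-06, and 6.7e-05 without a filter). Slc38a8 passed the filter only through the RFP- libraries, so this fold change is a description. In Prdm1 KO its signal was 227.8 and 269.2, against 1522 and 1210 in Prdm1 WT (log2 fold change -2.45, SE 0.17, limma adjusted p 0.0025). Slc16a10 (chr10:40033532-40142258, minus strand) encodes TAT1, a facilitator of aromatic amino acids. It had 2.27, 1.99 and 2.69 FPKM in RFP+ libraries, against 13.9, 13.2 and 11.3 FPKM in RFP- libraries (log2 fold change -2.06, SE 0.103, limma adjusted p 4.4e-06). Its signal was 723.6 and 459.4 in Prdm1 KO, against 2734 and 1878 in Prdm1 WT (log2 fold change -1.97, limma adjusted p 0.0087). Both genes were thus low in RFP+ and in Prdm1 KO libraries, with no overlap between groups in either comparison. After Tcf7 or Bcl6 deletion neither passed the test, and Slc38a8 had a signal of 1266 and 1269 in Tcf7 KO, against 1034 and 945.2 in Tcf7 WT.

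Slc15a2 (chr16:36750177-36784962, minus strand) was called in both directions by different deletions. It encodes PEPT2, a proton-coupled carrier of di- and tripeptides. Its signal was 471.5 and 834.6 in Prdm1 KO, against 1941 and 3539 in Prdm1 WT (log2 fold change -2.06, SE 0.342, limma adjusted p 0.018). It was 2274 and 2427 in Tcf7 KO, against 1469 and 1520 in Tcf7 WT (log2 fold change 0.65, SE 0.074, limma adjusted p 0.00019). Replicates of this gene scattered widely in the RFP experiment, with 8.62, 10.7 and 3.38 FPKM in RFP+ libraries, against 3.29, 7.36 and 11.6 FPKM in RFP- libraries, and the groups overlapped.

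The carriers best known from T-cell activation showed smaller differences. Slc38a2 and Slc38a1, sodium-coupled importers of glutamine and other small neutral amino acids, were both higher in RFP+ cells. Slc38a2 had 51.6, 48.3 and 48.7 FPKM in RFP+ libraries, against 36, 38.8 and 38.7 FPKM in RFP- libraries (log2 fold change 0.38, limma adjusted p 0.00095). Slc38a1 averaged 16.8 ± 0.693 FPKM in RFP+ libraries and 12.7 ± 1.12 in RFP- libraries (SD, n = 3 each; log2 fold change 0.38, limma adjusted p 0.0041). In Bcl6 KO, Slc38a2 had 20.8 and 20.4 FPKM, against 33.7 and 30.3 FPKM in Bcl6 WT, which did not pass the test (log2 fold change -0.61, limma adjusted p 0.32). Slc3a2, the CD98 heavy chain that carries several Slc7 carriers to the membrane, had the highest level of the class; it averaged 126.8 ± 16.1 FPKM in RFP+ libraries and 163 ± 19.9 in RFP- libraries (SD, n = 3 each; log2 fold change -0.36, limma adjusted p 0.036). That call was lost without a filter, with equal library sums (adjusted p 0.13) and without 4 of the 6 libraries in turn. Its partner Slc7a5, the large neutral amino acid carrier LAT1, had 4.88, 2.65 and 5.25 FPKM in RFP+ libraries, against 3.27, 2.86 and 1.99 FPKM in RFP- libraries, and did not pass the test (log2 fold change 0.48, limma adjusted p 0.11). In Prdm1 KO the signal of Slc7a5 was 807.3 and 685, against 517.2 and 454.7 in Prdm1 WT (log2 fold change 0.62, limma adjusted p 0.065). Slc1a5, the glutamine carrier ASCT2, had 80.7 ± 5.45 FPKM in RFP+ libraries and 86.2 ± 3.32 in RFP- libraries (SD, n = 3 each), and Slc7a6 had 11.5 ± 0.274 FPKM in RFP+ libraries and 10.1 ± 0.594 in RFP- libraries; neither passed the test in any comparison. The remaining calls in RFP+ cells were Slc6a6 and Slc7a1, higher by 0.34 and 0.31 on the log2 scale, and Slc36a1, Slc36a4 and Slc38a10, lower with log2 fold changes of -0.83, -0.36 and -0.23. In Prdm1 KO the 1 amino acid carrier called higher was Slc7a8, which many epithelia use for neutral amino acids (log2 fold change 1.68).

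Of the 11 members called in the same direction in RFP+ cells and in Prdm1 KO, the 3 with the largest absolute log2 fold changes averaged over both comparisons are Slc38a8, Slc2a6 and Slc16a10. Their RefSeq promoters (GRCm38.p6), from 250 bases before to 50 after the annotated start, are shown because these genes moved in both comparisons, Slc2a6 higher and the other two lower. They are written 5′ to 3′ on the gene's strand, and capitals mark matches to GNGAAAG, a form of the BLIMP1 site.
Slc2a6, chr2:27027949-27028248, minus strand: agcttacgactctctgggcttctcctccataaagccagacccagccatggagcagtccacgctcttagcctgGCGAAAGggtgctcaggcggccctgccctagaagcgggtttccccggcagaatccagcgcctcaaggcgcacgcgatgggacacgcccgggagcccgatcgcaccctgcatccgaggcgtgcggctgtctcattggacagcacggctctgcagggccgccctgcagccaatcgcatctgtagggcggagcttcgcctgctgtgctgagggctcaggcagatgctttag
Slc38a8, chr8:119501649-119501948, minus strand: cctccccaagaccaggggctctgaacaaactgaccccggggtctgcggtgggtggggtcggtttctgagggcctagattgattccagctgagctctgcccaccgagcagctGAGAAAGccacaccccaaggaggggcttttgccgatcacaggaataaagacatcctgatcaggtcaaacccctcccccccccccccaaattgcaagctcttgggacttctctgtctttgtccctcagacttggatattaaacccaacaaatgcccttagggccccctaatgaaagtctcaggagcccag
Slc16a10, chr10:40142205-40142504, minus strand: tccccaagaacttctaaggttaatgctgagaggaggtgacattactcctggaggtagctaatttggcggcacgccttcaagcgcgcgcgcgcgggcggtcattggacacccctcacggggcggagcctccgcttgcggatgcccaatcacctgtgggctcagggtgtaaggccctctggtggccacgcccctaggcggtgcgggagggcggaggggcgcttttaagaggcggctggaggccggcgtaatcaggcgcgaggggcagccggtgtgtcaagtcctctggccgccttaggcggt
Slc2a6 and Slc38a8 hold 1 match to GNGAAAG each and Slc16a10 holds none, searching both strands. Of all 32851 promoter entries, 22.6% hold such a match, and 23.2% of the 211 entries of members do. None of the 3 holds CTTTGA, the core of the TCF1 site (16% of all entries), or TTCNNNGAA, a form of the BCL6 site (8.3% of all entries). These letters in these windows say nothing about binding.

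All 5 monocarboxylate carriers tested in the RFP experiment were called, 1 higher and 4 lower, beside 38% of all genes called. The same held under each of the 3 scalings tried. Slc16a1, which encodes MCT1 and moves lactate, pyruvate and ketone bodies, had 4.68, 3.93 and 5.99 FPKM in RFP+ libraries, against 2.04, 1.93 and 1.7 FPKM in RFP- libraries (log2 fold change 1.01, SE 0.127, limma adjusted p 0.00056). Slc16a3, which encodes MCT4, the lactate exporter of glycolytic cells, was lower, with 2.2, 2.5 and 2.4 FPKM in RFP+ libraries, against 4.87, 4.37 and 4.39 FPKM in RFP- libraries (log2 fold change -0.72, limma adjusted p 0.00022). The 2 lactate carriers thus differed in opposite directions between the same libraries. Slc16a11 was lower as well, with 6.17, 6.06 and 5.68 FPKM in RFP+ libraries, against 14.9, 13.2 and 14.4 FPKM in RFP- libraries (log2 fold change -1.12, limma adjusted p 8.8e-06). Slc16a6, the highest of the class, averaged 30.1 ± 3 FPKM in RFP+ libraries and 43 ± 4.97 in RFP- libraries (SD, n = 3 each; log2 fold change -0.50, limma adjusted p 0.0045); 21.5% of its exon bases overlap Amz2 on the other strand, and reads of Slc16a6 and Amz2 cannot be told apart without strand. Slc16a13 was lower with a log2 fold change of -0.99. In Bcl6 KO, Slc16a1 had 4.05 and 3.64 FPKM, against 11.7 and 8.22 FPKM in Bcl6 WT, a log2 fold change of -1.16 that did not pass the test (limma adjusted p 0.068). In Prdm1 KO its signal was 1083 and 793.1, against 603.1 and 668.7 in Prdm1 WT (log2 fold change 0.54, limma adjusted p 0.14). Slc16a5 was the 1 carrier of this class called after Prdm1 deletion, with a signal of 170.6 and 182.9 in Prdm1 KO, against 50.7 and 39.7 in Prdm1 WT (log2 fold change 1.95). It passed the filter only through the Prdm1 KO libraries, so its values are a description.

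Carriers of nucleosides and nucleobases were dominated by Slc28a2, which encodes CNT2, a sodium-coupled importer of purine nucleosides. Slc28a2 (chr2:122426477-122461137, plus strand) had 84.5, 88.2 and 85.1 FPKM in RFP+ libraries, against 149.2, 155.3 and 157.4 FPKM in RFP- libraries (log2 fold change -0.83, SE 0.0483, limma adjusted p 8.8e-06). Its signal was 14795 and 14552 in Prdm1 KO, against 21779 and 20375 in Prdm1 WT (log2 fold change -0.52, limma adjusted p 0.039); leaving out either Prdm1 KO library or Prdm1 WT replicate 1 gave an adjusted p of 0.066 to 0.22. Its close paralog Slc28a2b was called lower in Prdm1 KO too (log2 fold change -0.55), and reads may be divided uncertainly between the pair. Slc43a3 (chr2:84936579-84958509, plus strand), a facilitator of purine nucleobases, had 1.36, 1.11 and 1.31 FPKM in RFP+ libraries, against 6.43, 4.43 and 4.57 FPKM in RFP- libraries (log2 fold change -1.43, SE 0.128, limma adjusted p 9.4e-05). In Prdm1 KO its signal was 321 and 299.3, against 615.5 and 585.9 in Prdm1 WT (log2 fold change -0.95, limma adjusted p 0.015). Of the equilibrative carriers, Slc29a2 was higher in RFP+ cells (log2 fold change 0.59), whereas Slc29a1, with 6.59 ± 0.71 FPKM in RFP+ and 7.75 ± 0.284 in RFP- libraries, and the lysosomal Slc29a3, with 2.87 ± 0.402 FPKM in RFP+ and 2.53 ± 0.219 in RFP- libraries (SD, n = 3 each), did not pass the test. Slc29a2 passed the filter only through the RFP+ libraries, so its fold change is a description.

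Among carriers of inorganic ions, 4 of 23 tested were higher and 4 lower in RFP+ cells (34.8%, beside 38% of all genes). With equal library sums these counts were 9 and 0, beside 3300 and 1171 over all genes. The leading member was Slc26a11 (chr11:119355557-119381079, plus strand), a sulfate and anion carrier, with 13.7, 14.1 and 16.6 FPKM in RFP+ libraries, against 1.83, 2.14 and 2.31 FPKM in RFP- libraries. The groups were separated by a log2 fold change of 2.35 (SE 0.093, limma adjusted p 1.7e-06); with a pseudocount of 0.1 in place of 1 it was 2.76, below the 3.14 of Slc2a6. It had a signal of 1731 and 1597 in Prdm1 KO, against 693.1 and 886.2 in Prdm1 WT (log2 fold change 1.08, SE 0.146, limma adjusted p 0.01). In Tcf7 KO it had 675.7 and 638.9, against 1007 and 1007 in Tcf7 WT (log2 fold change -0.62, SE 0.101, limma adjusted p 0.0034). The sequence of directions was that of Slc2a6, and Slc26a11 was the 1 member called in 3 comparisons. In Bcl6 KO it had 5.86 and 3.33 FPKM, against 10.6 and 9.64 FPKM in Bcl6 WT, with no overlap. The log2 fold change of -1.03 did not pass the test (limma adjusted p 0.2).

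**Figure D3:**
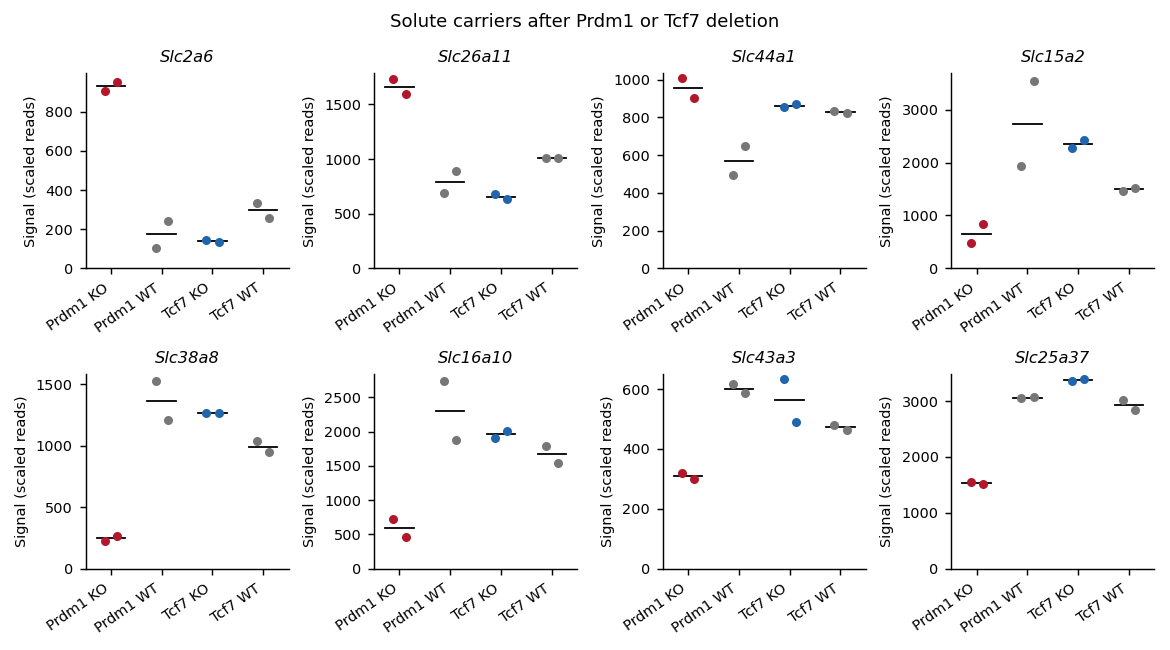
Signal (size-factor-scaled reads, y axis, linear from 0) of 8 solute carriers in Prdm1 KO and Prdm1 WT and in Tcf7 KO and Tcf7 WT libraries (x axis); points are libraries and lines group means. Slc2a6 and Slc26a11 are high in Prdm1 KO and low in Tcf7 KO, and Slc15a2 is low in Prdm1 KO and high in Tcf7 KO, each relative to its own WT.

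Several ion carriers moved in 1 comparison. Slc12a2, the sodium-potassium-chloride cotransporter NKCC1, had a signal of 1547 and 1468 in Prdm1 KO, against 542.1 and 559.1 in Prdm1 WT (log2 fold change 1.45, SE 0.114, limma adjusted p 0.0027). In the RFP experiment it had 1.18, 1.29 and 1.55 FPKM in RFP+ libraries, against 0.444, 1.16 and 0.744 FPKM in RFP- libraries, and did not pass the test (limma adjusted p 0.07). Slc12a7, the potassium-chloride cotransporter KCC4, had 33.9, 36 and 35.8 FPKM in RFP+ libraries, against 22.7, 24.8 and 26.9 FPKM in RFP- libraries (log2 fold change 0.49, limma adjusted p 0.00082). Slc9a9, an endosomal sodium-proton exchanger, averaged 8.14 ± 0.129 FPKM in RFP+ libraries and 5.92 ± 0.465 in RFP- libraries (SD, n = 3 each; log2 fold change 0.40, limma adjusted p 0.0024). Slc20a1, the phosphate importer PiT1 and the highest of the class, averaged 44 ± 2.4 FPKM in RFP+ and 41.1 ± 3 in RFP- libraries (SD, n = 3 each) and passed the test in none of the 4 comparisons. Further calls in RFP+ cells were the magnesium carrier Slc41a1, higher by 0.25 on the log2 scale, and Slc26a10, the copper importer Slc31a1 and the phosphate carrier Slc20a2, lower with log2 fold changes of -0.45 to -0.21. Of 32 ion carriers tested after Prdm1 deletion, 5 were called, all higher (15.6%, beside 6.84% of all genes, 4.29% higher and 2.54% lower). They were Slc12a2, Slc26a11, the sodium-coupled bicarbonate carriers Slc4a8 and Slc4a4, and the chloride-bicarbonate exchanger Slc26a3. Slc4a4 and Slc26a3 passed the filter only through the Prdm1 KO libraries, so they could only be called higher and their values are a description. Slc4a8 had a signal of 666.4 and 767.1 in Prdm1 KO, against 453.1 and 399.5 in Prdm1 WT (log2 fold change 0.75, limma adjusted p 0.033; 0.14 without Prdm1 KO replicate 2).

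Zinc carriers were counted by family in the RFP comparison. The ZIP carriers (Slc39a) move zinc into the cytosol and the ZnT carriers (Slc30a) move it out, to vesicles or to the outside. Of 11 ZIP genes tested, 1 was higher and 7 were lower in RFP+ cells, with a median log2 fold change of -0.32. Of 6 ZnT genes tested, 3 were higher and the other 3 were not called, with a median of 0.12. Over all genes, 16.4% were higher and 21.6% lower. The ZnT median is below the shift of 0.145 that rescaling to equal library sums gave over all genes. With equal library sums the ZIP counts were 2 higher and 5 lower with a median of -0.18, and again 3 ZnT genes were higher. Over all genes, 3300 were higher and 1171 lower on that scale. Slc39a4, which encodes ZIP4, the zinc importer of the intestine, had 21.2, 23.9 and 24.1 FPKM in RFP+ libraries, against 33.8, 32.2 and 34 FPKM in RFP- libraries (log2 fold change -0.51, limma adjusted p 0.00042). Slc39a5 had the lowest ZIP fold change, at -1.33. The ZnT genes called higher were Slc30a4, Slc30a6 and Slc30a9, with log2 fold changes of 0.23 to 0.33. Settings that lost the Slc30a6 call included no filter and leaving out RFP+ replicate 2, RFP+ replicate 3 or RFP- replicate 1. Slc39a1 and Slc30a5 did not pass the test in any comparison; Slc39a1 had 12 ± 0.716 FPKM in RFP+ and 11.8 ± 1.03 in RFP- libraries, and Slc30a5 had 6.95 ± 0.117 FPKM in RFP+ and 6.99 ± 0.0835 in RFP- libraries (SD, n = 3 each). After Prdm1 deletion limma called none of 18 zinc carriers, beside 6.84% of all genes, with 4 at an unadjusted p below 0.05. There edgeR called none and DESeq2 called 1 lower. After Tcf7 deletion limma, edgeR and DESeq2 called none, and no zinc carrier had an unadjusted p below 0.05 by limma. Over all genes limma called 2.72% there.

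Of the mitochondrial carriers (Slc25a), 37 were tested in RFP+ against RFP- cells. Of these, 5 were higher and 6 lower in RFP+ cells (29.7%, beside 38% of all genes). With equal library sums the split was 10 and 4, beside 3300 and 1171 over all genes. The adenine nucleotide carrier Slc25a5 and the phosphate carrier Slc25a3 were the highest, and both overlapped between groups: Slc25a5 had 125 ± 5.84 FPKM in RFP+ and 130.9 ± 18.3 in RFP- libraries, and Slc25a3 had 109.8 ± 12.2 FPKM in RFP+ and 114.4 ± 16.1 in RFP- libraries (SD, n = 3 each). Slc25a37 (chr14:69241848-69285112, minus strand) encodes mitoferrin 1, the iron importer of mitochondria. It had 5.9, 6.55 and 6.42 FPKM in RFP+ libraries, against 17.1, 17.2 and 18 FPKM in RFP- libraries (log2 fold change -1.34, SE 0.0589, limma adjusted p 2.4e-06). Its signal was 1546 and 1512 in Prdm1 KO, against 3047 and 3068 in Prdm1 WT (log2 fold change -0.999, SE 0.0927, limma adjusted p 0.0036). Replicates agreed closely in both comparisons. Slc25a30 went the other way, with 15.6, 15.2 and 14.2 FPKM in RFP+ libraries, against 8.77, 8.2 and 8.84 FPKM in RFP- libraries (log2 fold change 0.74, limma adjusted p 4.7e-05). Its signal was 1464 and 1552 in Prdm1 KO, against 1053 and 1079 in Prdm1 WT (log2 fold change 0.50, limma adjusted p 0.04), a call that was lost without either Prdm1 KO library or without Prdm1 WT replicate 1. Further calls in RFP+ cells were Slc25a27, Slc25a32 and Slc25a22, higher, and Slc25a24, Slc25a45, Slc25a16, Slc25a39 and Slc25a11, lower with log2 fold changes of -0.59 to -0.20. Slc25a27 passed the filter only through the RFP+ libraries, so its call is a description. Slc25a37 and Slc25a30 were the only Slc25a genes called by limma after Prdm1 deletion (5.26% of 38 tested, beside 6.84% of all genes). None of 39 was called after Tcf7 deletion by limma, edgeR or DESeq2, where limma called 2.72% of all genes. Of the 39, 4 had an unadjusted p below 0.05 by limma.

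The carriers of vitamins, lipids, organic ions and other substrates gave 9 higher and 8 lower of 27 tested in RFP+ cells (63%, beside 38% of all genes). Slc14a1, the urea channel UT-B, had 5.63, 6.25 and 5.66 FPKM in RFP+ libraries, against 2.76, 2.94 and 3.7 FPKM in RFP- libraries (log2 fold change 0.73, limma adjusted p 0.00069). In Tcf7 KO its signal was 830.9 and 924.8, against 1208 and 1151 in Tcf7 WT (log2 fold change -0.43, limma adjusted p 0.03; 0.28 without Tcf7 KO replicate 1). In Prdm1 KO it was 809.4 and 991.6, against 604.1 and 461.6 in Prdm1 WT, which missed the threshold (log2 fold change 0.76, limma adjusted p 0.057). In Bcl6 KO it had 6.97 and 4.83 FPKM, against 4.03 and 5.45 FPKM in Bcl6 WT, and the groups overlapped (log2 fold change 0.26, limma adjusted p 0.95). The choline carriers Slc44a1 and Slc44a2 were both higher in RFP+ cells: Slc44a2, the highest of the class, averaged 44.1 ± 1.25 FPKM in RFP+ and 34.2 ± 1.1 in RFP- libraries (SD, n = 3 each; log2 fold change 0.36, limma adjusted p 0.00087). Slc44a1 had 2.82, 2.55 and 2.25 FPKM in RFP+ libraries, against 1.59, 1.73 and 2.05 FPKM in RFP- libraries (log2 fold change 0.34, limma adjusted p 0.028, and 0.071 to 0.1 in 4 of the fits that leave out a library). Slc44a1 was also called in Prdm1 KO, with a signal of 1008 and 901.2, against 492.4 and 649.7 in Prdm1 WT (log2 fold change 0.75, limma adjusted p 0.047, and 0.059 to 0.094 under 3 alternatives).

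Fatty acid carriers of the Slc27 family went in both directions. Slc27a1, a long-chain fatty acid carrier and acyl-CoA synthetase, had 4.53, 4.83 and 4.35 FPKM in RFP+ libraries, against 7.5, 8.31 and 7.59 FPKM in RFP- libraries (log2 fold change -0.66, limma adjusted p 0.00018). Its signal was 740.6 and 884.5 in Prdm1 KO, against 1494 and 1385 in Prdm1 WT (log2 fold change -0.83, limma adjusted p 0.016). Slc27a6, named here after its values were seen, had 3.73, 4.98 and 4.45 FPKM in RFP+ libraries, against 0.39, 0.121 and 0.232 FPKM in RFP- libraries. It passed the filter only through the RFP+ libraries, so these values are a description, and it was called in no knockout. The riboflavin carrier Slc52a3 had 3.67, 4.23 and 4.17 FPKM in RFP+ libraries, against 10.3, 8.63 and 10.2 FPKM in RFP- libraries (log2 fold change -1.09, limma adjusted p 3.9e-05). Further members higher in RFP+ cells were the inositol carrier Slc5a3, the folate carrier Slc19a1, the thiamine carrier Slc19a2, Slc10a3 and the carnitine carrier Slc22a5, with log2 fold changes of 0.27 to 0.61. Further members lower in RFP+ cells were Slc22a15, Slc45a4, the haem carrier Slc48a1, Slc46a3, Slc10a7 and the acetyl-CoA carrier Slc33a1, with log2 fold changes of -0.73 to -0.27.

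Carriers of nucleotide sugars and sugar phosphates, which feed glycosylation in the Golgi and the endoplasmic reticulum, held no call in RFP+ cells. None of 8 passed by limma, beside 38% of all genes, and none had an unadjusted p below 0.05. With equal library sums 2 were called higher, beside 3300 over all genes. None of 9 was called by limma, edgeR or DESeq2 in Prdm1 KO (1 at an unadjusted p below 0.05 by limma) or in Tcf7 KO (none). Over all genes limma called 6.84% in Prdm1 KO and 2.72% in Tcf7 KO. Slc35a4, the highest, averaged 21.7 ± 0.711 FPKM in RFP+ and 22.9 ± 1.27 in RFP- libraries (SD, n = 3 each). Of the 4 genes that name no transporter, the scaffold gene Slc9a3r1 had the highest level of all 216 and averaged 157.4 ± 4.55 FPKM in RFP+ and 180.7 ± 6.19 in RFP- libraries (SD, n = 3 each; log2 fold change -0.20, limma adjusted p 0.018). With equal library sums its log2 fold change was -0.04 (adjusted p 0.52). Its relative Slc9a3r2 was lower with a log2 fold change of -0.77.

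Members called in RFP+ cells and in Prdm1 KO always shared their direction. Of 151 members tested in both comparisons, 70 were called in RFP+ cells and 14 in Prdm1 KO. The 11 called in both were 15.7% of the RFP calls and 78.6% of the Prdm1 calls, beside 11.1% and 90.6% over all genes. Those 11 had the same direction in both comparisons: Slc2a6, Slc26a11, Slc25a30 and Slc44a1 were higher, and Slc38a8, Slc16a10, Slc25a37, Slc43a3, Slc28a2, Slc27a1 and Slc2a3 were lower. Slc2a6 and Slc38a8 passed the filter of the RFP comparison only through the group in which they are high, so their RFP calls are a description. Over all genes, 402 of 406 called in both had the same direction. Across the 151 members, the log2 fold changes had a Pearson correlation of 0.783 and a Spearman correlation of 0.759, beside 0.726 and 0.673 over 9582 genes; genes are not independent replicates, and the 2 experiments share no libraries. Prdm1 itself had 0.826, 1.27 and 1.02 FPKM in RFP+ libraries, against 21.4, 29.4 and 29.8 FPKM in RFP- libraries. Slc15a2, Slc12a2 and Slc4a8 were called after Prdm1 deletion and not in RFP+ cells; the difference between the comparisons was not tested.

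**Figure D4:**
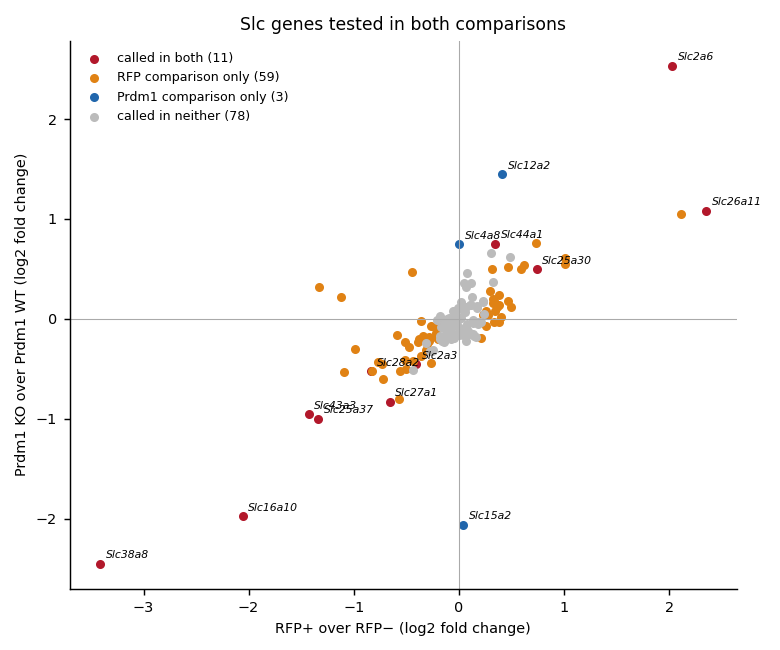
Log2 fold change of 151 Slc genes in RFP+ over RFP- cells (x axis) and in Prdm1 KO over Prdm1 WT (y axis); each point is a gene, coloured by the comparisons in which it was called, with names for those called after Prdm1 deletion. The 11 genes called in both lie in the upper right or lower left, from Slc2a6 at 2.03 and 2.53 to Slc38a8 at -3.41 and -2.45, and Slc15a2 lies at 0.04 and -2.06.

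Members called in RFP+ cells and also after Tcf7 or Bcl6 deletion had opposite directions. The 3 members called in RFP+ cells and in Tcf7 KO, which were Slc2a6, Slc26a11 and Slc14a1, were higher in RFP+ cells and lower in Tcf7 KO; Slc15a2, the other member called in Tcf7 KO, was not called in RFP+ cells. Over all genes, 226 of 258 called in both had opposite directions. Tcf7 had 227.1 to 245.3 FPKM in RFP+ libraries, against 3.99 to 6.46 FPKM in RFP- libraries. The 1 member called in Bcl6 KO, Slc2a6, was higher in RFP+ cells and lower in Bcl6 KO. The difference between the Prdm1 and Tcf7 deletion effects was tested over their 8 libraries, with each effect taken within its own table. Of 177 members 24 differed, 13 with a higher and 11 with a lower effect of Prdm1 deletion (13.6%, beside 9.47% of all genes, 5.19% higher and 4.28% lower). Leaving out any 1 of the 4 libraries of the Tcf7 experiment left 6 or 7 higher and 5 or 6 lower. The largest were Slc2a6 at 3.60, Slc38a8 at -2.81 and Slc15a2 at -2.71 on the log2 scale (limma adjusted p 0.0014, 6e-05 and 0.0033). The Bcl6 comparison depended on Bcl6 KO replicate 1: without it, 10 members were higher and 21 lower, with the spread of the lone library taken from the other group, whereas 0 were higher and 5 lower without replicate 2.

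**Figure D5:**
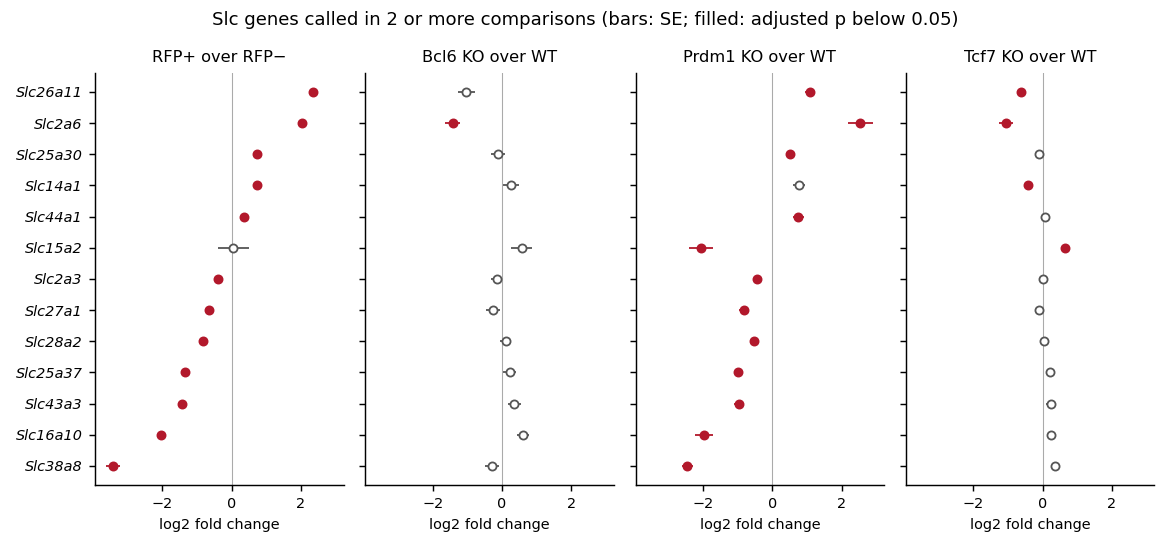
Log2 fold change (x axis; bars, SE) of the 13 Slc genes called in 2 or more comparisons (y axis), in RFP+ over RFP-, Bcl6 KO over WT, Prdm1 KO over WT and Tcf7 KO over WT; filled points have an adjusted p below 0.05. The RFP and Prdm1 panels show the same sign for every gene called in both, and Slc2a6 is filled in all 4.

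Markers of other cells moved with some of these groups. In Prdm1 KO, 10 of 15 epithelial markers were called higher, led by Krt8, Vil1 and Krt19, with a median log2 fold change of 1.43. The 15 markers had a summed signal of 19878 and 20079, against 16177 and 15299 in Prdm1 WT. This sum also holds the markers that were not called. Krt8 had 929.1 and 1094 in Prdm1 KO, against 250.3 and 198.5 in Prdm1 WT. No epithelial marker was at 0 in any of these 4 libraries. Of 11 tested members of a list of enterocyte carriers, Slc5a1 was higher, and Slc16a10 and Slc28a2 were lower. Slc26a3 and Slc27a2, also called higher, lay below the filter in both Prdm1 WT libraries, as did Slc4a4, so they had to differ and their values are a description. Slc26a3 had a signal of 111.2 and 135.1 in Prdm1 KO, against 36.2 and 20.7 in Prdm1 WT (log2 fold change 2.12), and Slc27a2 had 84.8 and 87.3 in Prdm1 KO, against 20.7 and 11.2 in Prdm1 WT (log2 fold change 2.42). Slc4a4 had 78.4 and 166.3 in Prdm1 KO, against 22.8 and 22.4 in Prdm1 WT (log2 fold change 2.29). The part of epithelial RNA in these differences was not tested. Without the enterocyte list, an alternative added after seeing the data, 9 members were higher and 7 lower in Prdm1 KO. In these sorted bulk samples, fewer cells of a type and less RNA per cell cannot be told apart. In the RFP experiment 15 epithelial markers summed to 109.6 to 124.6 FPKM in RFP+ libraries, against 104.6 to 184.4 FPKM in RFP- libraries, and RFP- replicate 2 held the highest sum. Cdh1 and Epcam held much of these sums, with 59.7 and 32.7 FPKM in RFP+ replicate 1. Of 9 epithelial markers tested, Cdh1 was called higher and Epcam and Krt18 lower in RFP+ cells. Paneth and goblet cell markers summed to 67.9, 27.9 and 19.3 FPKM in RFP+ libraries, against 39.4, 293.2 and 71.6 FPKM in RFP- libraries, with the highest sum again in RFP- replicate 2, and none of 6 tested was called by limma. They summed to a signal of 12638 and 11348 in Tcf7 KO, against 7051 and 6699 in Tcf7 WT, with 7 of 8 called higher. They summed to 128.1 and 108.6 FPKM in Bcl6 KO, against 272 and 289.9 FPKM in Bcl6 WT, with 4 of 8 called lower. In Prdm1 KO they summed to 4190 and 16604, against 2138 and 3327 in Prdm1 WT, with 2 of 8 called higher. Of 9 myeloid markers, the 3 tested were all lower in RFP+ cells, with sums of 10.8 to 13.0 FPKM in RFP+ libraries, against 42.9 to 53.7 FPKM in RFP- libraries. In Prdm1 KO 2 of 4 tested were lower, with sums of 1151 and 1082, against 2422 and 2521 in Prdm1 WT. In Tcf7 KO 2 of 4 were higher, with sums of 11228 and 11104, against 7622 and 7591 in Tcf7 WT. Fcgr3 and Itgam were the markers called in both knockouts. Fcgr3 held most of the RFP sums, at 8.46 to 9.34 FPKM in RFP+ libraries and 38.5 to 48.4 FPKM in RFP- libraries. Whether this RNA came from myeloid cells was not tested. The macrophage markers C1qa and Csf1r were at or below 0.171 and 0.0347 FPKM in all 6 RFP+ and RFP- libraries, C1qa at 0 in RFP+ replicate 2 and Csf1r at 0 in RFP- replicates 1 and 3. C1qa was also at 0 in Prdm1 KO replicate 2, Tcf7 KO replicate 1 and Tcf7 WT replicate 2. Of markers of CD8αβ or CD4 T cells, 2 of 5 tested were higher in Tcf7 KO, Cd5 and Cd6, with sums of 1321 and 1287, against 812.7 and 595.1 in Tcf7 WT. In the RFP experiment 1 of 2 was higher, Cd40lg, with sums of 5.40 to 7.90 FPKM in RFP+ libraries, against 2.47 to 2.88 FPKM in RFP- libraries. Of erythroid markers, 2 of 3 were higher in Tcf7 KO, Hbb-bs and Hba-a1, with sums of 625.9 and 631.4, against 371.1 and 330.1 in Tcf7 WT. The 1 tested B cell marker, Cd79b, and the 1 tested endothelial marker, Pecam1, were lower in RFP+ cells; Pecam1 had 1.85, 2.34 and 2.32 FPKM in RFP+ libraries, against 6.23, 5.86 and 6.38 FPKM in RFP- libraries. The part of such RNA in the member calls was not tested.

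Genes that act with the carriers were counted in the same fits; the counts stand beside 38% of all genes called in RFP+ against RFP- cells, and nothing particular to a list is read from them. Of 26 tested genes of amino acid sensing and mTORC1, 4 were higher and 5 lower in RFP+ cells (34.6%), led by Castor1, Rptor and Rragc. Of 6 tested genes of glucose handling, 2 were higher and 3 lower in RFP+ cells, led by Tbc1d1, Hk1 and Txnip. Of 2 tested zinc-binding genes, the metallothionein gene Mt1 was lower in RFP+ cells. Of 19 tested channels, pumps and regulators of ion transport, 6 were higher and 8 lower in RFP+ cells (73.7%), led by Atp2b4, Kcnn4 and Atp2a3. Of 11 tested nucleoside salvage genes, 1 was higher (Uck2) and 1 lower (Aprt) in RFP+ cells. Of 16 tested ABC transporters, the other large carrier superfamily, 2 were higher and 2 lower in RFP+ cells (25%). Of 12 tested chaperones and other carrier partners, 1 was higher and 2 were lower in RFP+ cells, which were Ostm1, Mfsd12 and Mfsd10.

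The 2 LI libraries were set beside the range of the RFP experiment for the members only. The share over all genes was not counted, so nothing particular to the members is read from these counts. Of 158 members at 1 FPKM or more in any of the 8 libraries, 37 were above all 6 RFP libraries in both LI libraries and 29 were below all 6. Beyond a factor of 1.5, 5 members were above, Slc14a1, Slc16a1, Slc7a5, Slc29a2 and Slc24a1, and 3 were below, Slc16a11, Slc36a1 and Slc39a5. Slc16a11 had 2.29 and 2.43 FPKM in the LI libraries. Slc38a8 had 0.228 and 0.52 FPKM and Slc26a11 had 20.9 and 20.7 FPKM in the LI libraries, each on the side of RFP+ cells.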

How the data were processed

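The authors deposited the RFP, Bcl6 and LI values as FPKM, by the names of the files. The Prdm1 and Tcf7 tables, deposited under the same name, hold a signal: reads divided by 1 size factor per library, with 100% of values whole multiples of a read (tolerance 0.01). Of the low FPKM values checked, 96.8 to 97.7% were whole reads (tolerance 0.02), which gave the depths. Tools listed in the processing notes of the submitters, with no role given, are RSEM, Bowtie2, featureCounts, DESeq2, Trim Galore 0.4.4 and Subread, on build mm10; whether strand was used in counting is not given in the sources used here.

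Each experiment was fitted alone on log2(value + 1), a pseudocount of 1, with limma 3.58.1 (lmFit, eBayes with a trend) in R 4.3.3, two-sided and with no covariate; the Benjamini-Hochberg adjustment ran over all genes tested; fold changes on this scale understate those of low genes. Adjusted p-values are from limma unless another tool is named. The filter was 1 FPKM or a signal of 50. In the Prdm1 and Tcf7 tables, edgeR 4.0.16 (quasi-likelihood) and DESeq2 1.42.0 were run on the recovered reads as alternatives. Other alternatives were pseudocounts of 0.1 and 5, no filter or a stricter one, rescaling, quantile normalization, a replicate block and leaving out each library. The fits were tested on simulated data. Coordinates come from GENCODE vM21 (GRCm38, also called mm10), where 213 members had a single gene; promoters come from RefSeq (GRCm38.p6), where 162 members matched.

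The members and lists were chosen with earlier results of these data known. Named members are 19 fixed carriers, up to 6 called members per direction and comparison by fold change (means from 5 FPKM or from a signal of 250, groups not overlapping), the highest member of each class, members called in 3 or more comparisons and the highest enterocyte carriers; others say so or belong to a list of calls. Some single-gene results are not reported here.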

Additional observations from a re-analysis of the deposited data

Results flagged for a closer look

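The effects of Prdm1 and Tcf7 deletion differed by the test of the difference itself (limma, log2 scale, Prdm1 effect minus Tcf7 effect, adjusted p below 0.05) in 17 of the named solute carriers. Many of these carriers were named for their changes after Prdm1 or Tcf7 deletion, in the same libraries. This count is therefore no separate support for those changes. Over all members tested, 24 of 177 differed (13.6%), beside 9.47% of all genes. The difference was positive for Slc2a6 at 3.60, Slc26a11 at 1.70, Slc5a1 at 1.65, Slc12a2 at 1.56, Slc14a1 at 1.19, Slc4a8 at 0.84, Slc16a1 at 0.81, Slc7a5 at 0.75 and Slc25a30 at 0.61. It was negative for Slc38a8 at -2.81, Slc15a2 at -2.71, Slc16a10 at -2.21, Slc43a3 at -1.20, Slc25a37 at -1.20, Slc27a1 at -0.71, Slc28a2 at -0.56 and Slc2a3 at -0.46. Slc7a5 and Slc16a1 passed this test although neither was called after either deletion alone. Settings under which Slc7a5 lost this call included quantile normalization and leaving out Prdm1 KO replicate 1, Prdm1 WT replicate 2, Tcf7 KO replicate 2 or either Tcf7 WT library. For Slc16a1 they included leaving out replicate 1 of Prdm1 KO or of Prdm1 WT, Tcf7 KO replicate 2 or either Tcf7 WT library. Slc2a3, Slc4a8, Slc25a30, Slc27a1 and Slc28a2 also lost this call without either Tcf7 WT library, among other settings. For Slc5a1, the epithelial markers given in the results moved in the same direction in Prdm1 KO.

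The LI libraries, which entered no comparison, held 3 named carriers at 1.5 times or more the highest RFP library. Slc7a5 had 8.67 and 9.86 FPKM in the LI libraries, where the highest RFP library had 5.25 FPKM. Slc16a1 had 9.37 and 9.47 FPKM in the LI libraries, where the highest had 5.99 FPKM. Slc14a1 had 10.2 and 9.42 FPKM in the LI libraries, where the highest had 6.25 FPKM.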

How the results depend on the processing

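Rescaling to equal library sums was run for the 4 comparisons. It gave 51 solute carriers higher and 25 lower in RFP+ cells, beside 3300 and 1171 of all 9717 genes. On that scale none was lower in Bcl6 KO. Without a filter, with the stricter filter or after quantile normalization none was lower in Bcl6 KO. The stricter filter left 6 higher in Prdm1 KO and 2 higher in Tcf7 KO, beside 210 and 218 over all genes. DESeq2 on recovered reads called 21 higher in Prdm1 KO, beside 809 over all genes. It kept all 21 calls of the main fit, as did edgeR. Replicate numbers are not stated to pair animals; same-numbered libraries correlated at -0.33 to 0.00 in the RFP experiment, -0.46 in the Bcl6, 0.53 in the Prdm1 and 0.06 in the Tcf7 experiment. With the replicate block, 4 were lower in Bcl6 KO, 26 higher and 24 lower in Prdm1 KO, 6 higher and 7 lower in Tcf7 KO, and 21 higher and 24 lower in the difference of the Prdm1 and Tcf7 effects. Over all genes the block gave 64 lower in Bcl6 KO and 1210 higher and 1176 lower in Prdm1 KO. It gave 495 and 482 in Tcf7 KO and 1076 and 1173 in the difference of effects. Leaving out 1 library at a time gave 20 to 29 higher and 32 to 38 lower in RFP+ cells, 0 to 10 higher and 1 to 21 lower in Bcl6 KO, 9 to 18 higher and 6 to 17 lower in Prdm1 KO, 1 to 5 higher and 2 to 5 lower in Tcf7 KO, and 6 to 16 higher and 5 to 15 lower in the difference of effects. Bcl6 KO replicate 1 gave the extremes in Bcl6 KO, Prdm1 WT replicate 2 the 17 lower in Prdm1 KO, and Tcf7 WT replicate 1 the 5 higher and 5 lower in Tcf7 KO. The causes were not tested. Of 46 called values of named carriers, 10 lost their call under at least 1 alternative and none changed sign.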
